A study of Homo sapiens with 6 samples.

Results

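Promoters at which histone lysine benzoylation (Kbz) lay beside the transcription start site (TSS), and not over it, were described in ChIP-seq peak lists of a human cell line. In ChIP-seq the DNA bound to histones that an antibody recognises is isolated and sequenced, and a peak is a stretch with more reads than its background. A promoter belonged to the set when 3 conditions held: a peak of lysine acetylation (Kac) from cells treated with sodium benzoate (SB) covered the TSS, no Kbz peak from SB-treated cells covered it, and a Kbz peak shared at least 1 bp with the window of 1 kb either side. The TSS was the start of the canonical GENCODE transcript of each protein-coding gene on chromosomes 1 to 22 and X, on hg38. Of 19970 genes, 1712 (8.57%) met the rule and are called offset promoters here. They are compared with 9121 promoters that had both Kac and Kbz over the TSS, and with 1258 that had Kac over the TSS and no Kbz within 1 kb. The classes were chosen on these peak lists, so the positions of SB Kac and SB Kbz at the TSS are a description of the choice.

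The cells were labelled HepG2, an established human line of hepatic tumour origin, grown without SB (control) or with 10 mM SB for 24 h. The series holds 6 ChIP-seq libraries, an input, a Kac and a Kbz library from each treatment, so each of the 6 groups is 1 library. Of these, 3 peak lists were used, which hold 70326 (control Kac), 63282 (SB Kac) and 24308 (SB Kbz) peaks. According to the labels, no peaks were called for control Kbz, and the inputs were not analysed here. Both antibodies were pan antibodies, so the modified histone and residue are not known. With 1 library per group no value below has an error between replicates and no difference was tested. Intervals are Wilson 95% intervals over promoters and cover counting error only. The sequencing depth cannot be read from peak lists and is unknown. The label of the cells did not match the acetylation of liver genes: of 14 hepatocyte markers 13 had no Kac peak over the TSS in either treatment, among them ALB, AFP, APOB, TTR and HNF4A. Of 5 markers each for neurons, kidney and blood, 2, 1 and 0 had SB Kac over the TSS, and the synaptic gene SYT1 was an offset promoter. All results therefore refer to the libraries labelled HepG2.

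In an active promoter the start site itself tends to be free of nucleosomes, and modified histones sit in the nucleosomes on its flanks. Acetyl groups neutralise the charge of lysine and are read by bromodomain proteins, and their presence around the TSS is a general feature of active promoters. Benzoyl groups are bulkier acyl groups made from benzoyl-CoA, for which SB is a source, and the deacetylase SIRT2 can remove them. A peak edge marks where the signal falls below the threshold of the peak caller, so an offset promoter is one where Kac passed that threshold at the start site and Kbz passed it only at some distance.

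The letters of 5 offset promoters are given first, read along the gene's strand from hg38, each a run of 300 bases, with the bases under the Kbz peak in capitals. RBM38, at chr20:57391137-57391436 on the plus strand, is shown for the highest Kbz fold with Kbz upstream. ACHE, at chr7:100895848-100896147 on the minus strand, and PTGS2, at chr1:186680383-186680682 on the minus strand, are shown because the study followed them up. These 3 runs start 259 bases before the TSS and end 40 bases after it. PRKAR1B, at chr7:726533-726832 on the minus strand, and LARP1, at chr5:154754887-154755186 on the plus strand, are shown for the highest Kbz fold with Kbz downstream and on both sides, and these runs are centred on the edge of the nearest Kbz peak.
RBM38: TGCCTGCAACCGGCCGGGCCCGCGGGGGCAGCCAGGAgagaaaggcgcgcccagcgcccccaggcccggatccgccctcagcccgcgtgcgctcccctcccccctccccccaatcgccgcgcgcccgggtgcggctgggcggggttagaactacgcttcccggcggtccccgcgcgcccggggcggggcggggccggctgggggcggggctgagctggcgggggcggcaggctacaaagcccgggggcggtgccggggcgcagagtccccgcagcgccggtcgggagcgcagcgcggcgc
ACHE: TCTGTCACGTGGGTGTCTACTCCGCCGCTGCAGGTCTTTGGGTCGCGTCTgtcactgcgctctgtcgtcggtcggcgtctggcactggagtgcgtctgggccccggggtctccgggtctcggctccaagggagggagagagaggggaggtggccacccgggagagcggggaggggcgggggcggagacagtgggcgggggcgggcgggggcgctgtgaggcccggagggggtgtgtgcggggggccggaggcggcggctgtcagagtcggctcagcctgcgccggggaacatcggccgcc
PTGS2: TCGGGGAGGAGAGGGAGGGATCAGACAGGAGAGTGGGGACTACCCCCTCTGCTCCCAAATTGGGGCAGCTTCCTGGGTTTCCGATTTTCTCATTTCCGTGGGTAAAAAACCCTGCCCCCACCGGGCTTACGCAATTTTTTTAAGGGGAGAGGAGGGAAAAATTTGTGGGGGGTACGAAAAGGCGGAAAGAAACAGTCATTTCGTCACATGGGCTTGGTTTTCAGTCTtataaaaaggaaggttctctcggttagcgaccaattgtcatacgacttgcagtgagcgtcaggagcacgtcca
PRKAR1B: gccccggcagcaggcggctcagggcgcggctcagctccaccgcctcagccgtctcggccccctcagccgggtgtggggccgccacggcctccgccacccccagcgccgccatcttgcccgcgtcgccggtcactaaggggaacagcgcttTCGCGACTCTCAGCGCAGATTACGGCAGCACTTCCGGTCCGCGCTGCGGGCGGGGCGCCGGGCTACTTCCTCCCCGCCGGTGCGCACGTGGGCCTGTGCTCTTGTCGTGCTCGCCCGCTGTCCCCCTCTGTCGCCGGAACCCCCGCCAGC
LARP1: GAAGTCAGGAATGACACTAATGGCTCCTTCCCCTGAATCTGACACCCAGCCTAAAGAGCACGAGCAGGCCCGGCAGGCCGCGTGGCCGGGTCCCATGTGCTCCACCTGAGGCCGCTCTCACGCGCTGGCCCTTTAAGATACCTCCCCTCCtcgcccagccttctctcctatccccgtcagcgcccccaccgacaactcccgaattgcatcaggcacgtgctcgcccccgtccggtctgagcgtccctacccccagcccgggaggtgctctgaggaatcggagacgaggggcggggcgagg

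In these runs the change from capitals to lower case is the edge of benzoylation, and the lower-case part runs through or towards the start. In RBM38, where 82.0% of the 300 bases are G or C with 44 CpG, the Kbz peak ended 223 bp before the TSS. In ACHE, with 74.3% GC and 32 CpG, it ended 210 bp before the TSS. PTGS2 differs, with 51.3% GC and 13 CpG. Its Kbz peak covered 227 of the 300 bases and stopped 33 bp before the TSS, and the letters TATAAA start at position -32, the base after the edge. The PRKAR1B run lies in the first part of its gene but reads the same DNA as the start of DNAAF5 on the other strand.

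A promoter could be offset in 3 ways. Kbz lay upstream only at 879 promoters (51.3%, 95% interval 49.0 to 53.7), downstream only at 724 (42.3%, 39.97 to 44.6) and on both sides at 109 (6.37%, 5.31 to 7.62). Over all genes, 60.5% had SB Kac over the TSS, 45.9% had SB Kbz over the TSS and 57.5% had SB Kbz within the window. Offset promoters made up 15.8% (15.1 to 16.5) of the 10833 acetylated promoters with Kbz in the window. For each list alone, a peak in the window but not over the TSS was found at 2304 of 11474 genes (20.1%) for SB Kbz, 1575 of 13666 (11.5%) for SB Kac and 1956 of 13795 (14.2%) for control Kac.

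**Figure D1:**
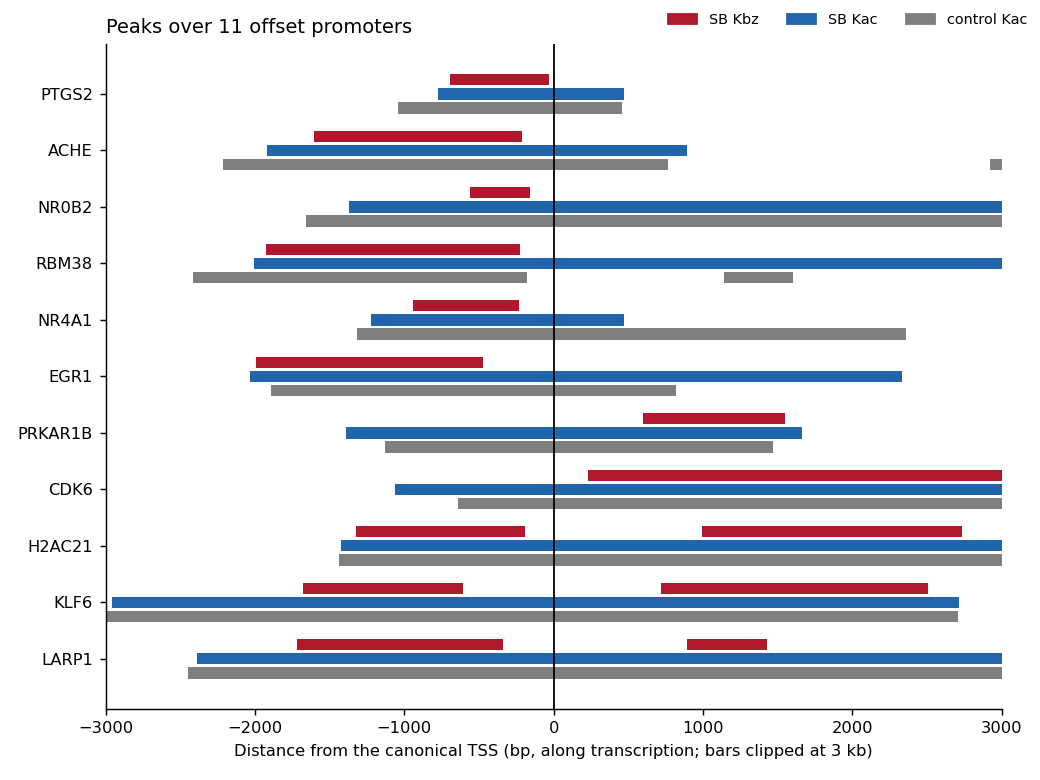
Peaks of SB Kbz (red), SB Kac (blue) and control Kac (grey) around the TSS of 11 offset promoters, drawn along the direction of transcription, with distance in bp and bars clipped at 3 kb. Kbz stops short of the TSS in each row while SB Kac crosses it, and control Kac stops short of it at RBM38.

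The RNA-binding protein RBM38, a target of p53, had the strongest Kbz peak of the whole list, with a fold of 16.0 over background, from -1925 to -223 bp of the TSS. SB Kac crossed the start with a fold of 9.97, from -2006 to 3125 bp. The control Kac peak upstream, with a fold of 8.70, ran from -2414 to -181 bp and left the start uncovered. At this promoter Kbz and control Kac ended close together, both short of the start.

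ACHE, which encodes acetylcholinesterase, the enzyme that breaks down acetylcholine, had Kbz from -1602 to -210 bp with a fold of 4.96. SB Kac (fold 4.98) and control Kac (fold 5.13) both crossed its TSS. PTGS2, the inducible cyclooxygenase of prostaglandin synthesis, had Kbz from -692 to -33 bp with a fold of 6.82, at percentile 94.4 of the Kbz list. SB Kac and control Kac crossed its TSS with folds of 6.30 and 6.25. Folds of different lists are not on a common scale, so these values do not measure a change with SB. The study reported that Kac at the promoters of both genes decreased after SB. PLA2G15 and PLA2G4C, phospholipases that the study followed up as well, had Kbz over the TSS and were not offset.

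With Kbz downstream only, the highest folds were at PRKAR1B, a regulatory subunit of protein kinase A, and TFAP4, a transcription factor. Their Kbz peaks had folds of 12.6 and 10.9 and began 599 and 483 bp past the TSS. The PRKAR1B peak is also the nearest Kbz peak of DNAAF5, a dynein assembly factor, where it ended 17 bp before the TSS. With Kbz on both sides the highest folds were at LARP1, which binds messenger RNAs of the translation machinery, KLHL21, a ubiquitin ligase adaptor, and ST3GAL2, a sialyltransferase. At LARP1 the Kbz peaks ended 341 bp before and began 892 bp after the TSS, while SB Kac and control Kac each spanned the whole stretch. The values at KLHL21 were 314 and 933 bp, and at ST3GAL2 254 and 983 bp.

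The median distance from the TSS to the nearest Kbz edge was 247.5 bp, with an interquartile range of 120 to 435 bp. Upstream and downstream promoters had close medians, 240 and 208.5 bp, but differently shaped distributions. Upstream, 27.1% of edges lay more than 100 and up to 200 bp from the TSS and 46.5% more than 200 and up to 500 bp, while 6.37% lay within 50 bp. Downstream, 18.9% lay within 50 bp, a further 16.7% within 100 bp and 23.3% beyond 500 bp. Kbz that came from upstream thus mostly ended at some distance from the start, and Kbz that came from downstream often began next to the start.

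**Figure D2:**
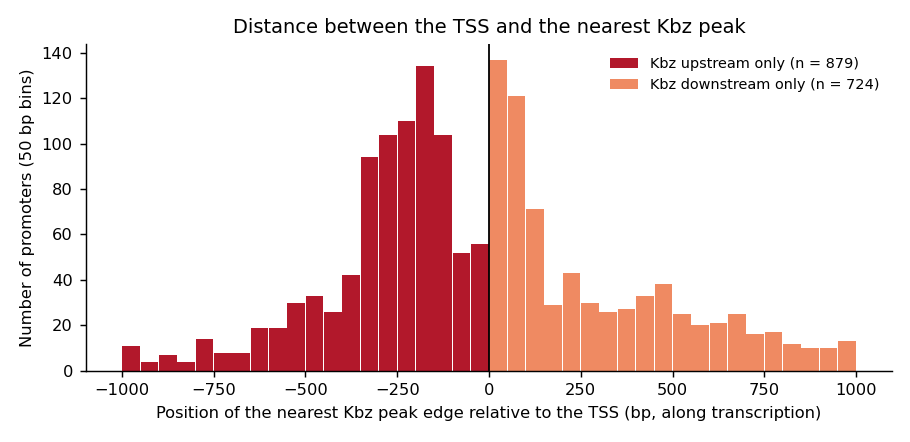
Number of offset promoters by the position of the nearest Kbz peak edge relative to the TSS, in bins of 50 bp along transcription, for 879 promoters with Kbz upstream only and 724 with Kbz downstream only. The upstream edges are most frequent from 100 to 500 bp before the TSS, and the downstream edges in the first 100 bp.

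The rule has edges of its own. The smallest distance was 1 bp, at ARL6IP5, CCNG2 and CHD3, and the largest was 1000 bp at WWC2 and ZFR and 997 bp at ICAM1. Just outside, ARHGAP40, GNB2 and MMD had the outermost base of a Kbz peak on the TSS itself, and WHRN, PDS5B and ATG4B had the nearest Kbz edge at 1006, 1010 and 1015 bp. The lists also bound what can be seen: no peak was shorter than 280 bp, and neighbouring peaks of a list lay at least 1121 bases apart. A dip in Kbz across a TSS narrower than that could not split a peak, so promoters with Kbz on both sides had 1121 to 1712 bases between the peaks, with a median of 1204. The 6.37% with Kbz on both sides therefore counts wide gaps alone.

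Kbz peaks at offset promoters were shorter and weaker than those over a TSS. The classes were split by whether a Kbz peak covered the TSS, and a longer peak covers a given base more often. The difference in length is therefore at least in part built into the choice. The nearest Kbz peak had a median length of 700.5 bp and a median fold of 4.06, at percentile 53.9 of its list, against 1824 bp and 4.75, at percentile 70.9, where Kbz covered the TSS. The SB Kac peak over the start differed less in length, with medians of 3050.5 and 3021 bp, while its fold was 4.19 at offset promoters, 5.07 where Kbz covered the TSS and 3.16 where no Kbz lay in the window. Most Kbz peaks lay within the Kac peak: in 1510 of 1712 promoters (88.2%, 86.6 to 89.6) every base of the Kbz peaks in the window was also under the Kac peak over the TSS, and in 2 no base was. The rule places the longer Kac peak over the TSS and Kbz within 1 kb of it. This overlap is therefore also at least in part built into the choice.

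The share of offset promoters was lower where acetylation was stronger, except in the lowest quintile. In quintiles of SB Kac fold over all acetylated promoters, from the lowest to the highest, it was 20.96, 23.2, 14.1, 7.98 and 4.59%. In the lowest quintile 43.3% had no Kbz in the window. By median fold offset promoters lay between both other classes, and since the classes were chosen on these lists the order is a description.

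Control Kac took no part in the rule. It covered the TSS at 59.3% of all genes and at 92.3% of acetylated promoters. At offset promoters it covered the TSS in 1358 of 1712 (79.3%, 77.3 to 81.2), against 98.3% (98.0 to 98.5) of promoters with Kbz over the TSS and 66.4% (63.7 to 68.9) of those with no Kbz in the window. The level moved with the length of the lists: with 15000 peaks of each list, control Kac covered the TSS at 47.6% of 853 offset promoters and at 79.6% of those with Kbz over the TSS. SB Kac covered the TSS in all 3 classes by choice, so in each of them a promoter without control Kac is one where the treated library alone passed the threshold. The reverse case falls outside these classes: control Kac covered the TSS at 680 of 7879 genes with no SB Kac over it. The control list holds more peaks than the SB Kac list, but over all genes it covered 11839 starts against 12091. The lower share held in every quintile of SB Kac fold: 75.1, 80.7, 83.5, 83.4 and 71.2% of offset promoters, from the lowest to the highest, against 93.2 to 99.7% where Kbz covered the TSS.

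**Figure D3:**
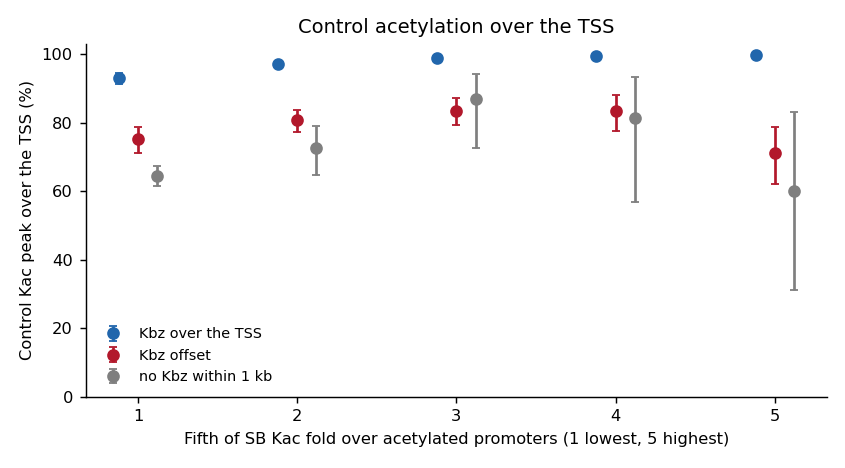
Percent of acetylated promoters with a control Kac peak over the TSS, in quintiles of SB Kac fold, for promoters with Kbz over the TSS (blue), offset Kbz (red) and no Kbz within 1 kb (grey). Bars are Wilson 95% intervals, which cover counting error only. The blue points lie above the red points in each quintile, and the grey intervals widen as fewer promoters are left.

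Where control Kac was missing from the TSS of an offset promoter, it was rarely missing from the promoter. Of 354 such promoters, 337 had a control Kac peak within the window and 17 had none. That peak lay on the side of Kbz. With Kbz upstream, control Kac lay upstream alone in 156 of 193 promoters (80.8%, 74.7 to 85.8), downstream alone in 2 and on both sides in 35. With Kbz downstream, it lay downstream alone in 94 of 121 (77.7%, 69.5 to 84.2), upstream alone in 5 and on both sides in 22. The nearest control Kac edge was a median of 237 bp from the TSS in the first set and 239 bp in the second.

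The same lean was seen over all offset promoters. Among those where control Kac covered unequal numbers of bases on the sides of the TSS, it covered more upstream in 410 of 542 promoters with Kbz upstream (75.6%, 71.9 to 79.1) and in 77 of 499 with Kbz downstream (15.4%, 12.5 to 18.9). Where Kbz covered the TSS the share was 46.0%. SB Kac leaned the same way, with more bases upstream in 64.6% and 9.56% of promoters, against 36.2% where Kbz covered the TSS. SB Kac and SB Kbz both set the rule, so the SB Kac lean is at least in part a description of the choice. Control Kac is the same mark and covered the TSS at 92.3% of acetylated promoters, so its lean is not independent of that choice either. These counts also take in promoters of the paragraph above. At 500 bp on the side of Kbz, control Kac covered 93.2% of promoters with Kbz upstream and 89.9% of those with Kbz downstream, and at 500 bp on the other side 68.3% and 60.6%.

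**Figure D4:**
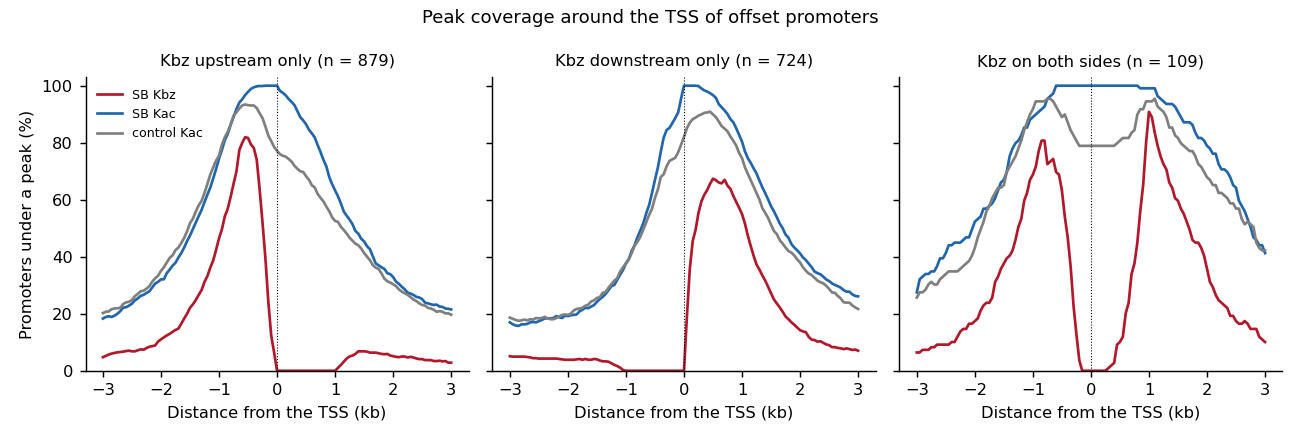
Percent of offset promoters under a peak at each distance from the TSS (kb, along transcription, steps of 50 bp), for Kbz upstream only (879 promoters), downstream only (724) and on both sides (109). SB Kbz is at 0 and SB Kac at 100% at the TSS by the rule. Control Kac is at 77.1, 82.0 and 78.9% there and is highest on the side of Kbz.

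RBM38 shows this at a single promoter, where control Kac ended at -181 bp and resumed at 1139 bp, while SB Kac was 1 peak across the whole stretch. Peaks of a list closer than 1121 bases do not occur, and the part of this limit in the differences between control and SB Kac was not tested.

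Many offset promoters had another annotated start under the Kbz peak. A different start of the same gene lay under Kbz at 502 promoters (29.3%, 27.2 to 31.5), in 20.7% of those with Kbz upstream and 38.3% of those with Kbz downstream. Starts of the same gene are dense, however. When the Kbz peaks of the promoters with Kbz on 1 side were mirrored across the TSS, 26.8% of mirrored peaks held such a start against 28.6% of the real ones. The sides differed: with Kbz upstream the values were 35.3% mirrored and 20.7% real, and with Kbz downstream 16.4% mirrored and 38.3% real, so more starts of the same gene lay downstream of the canonical start in both sets.

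A start of another gene lay under Kbz at 334 promoters (19.5%, 17.7 to 21.5), of a protein-coding gene at 153 (8.94%). With Kbz upstream the share was 21.8% against 7.74% for mirrored peaks, and with Kbz downstream 15.1% against 17.5%. Counting both kinds, 704 promoters (41.1%) had an annotated start under Kbz other than the canonical one. The RefSeq start, matched by symbol at 1332 offset promoters, differed from the canonical start at 296 and lay under Kbz at 109 of those 296 (36.8%, 31.5 to 42.5), against 942 of 1256 differing starts where Kbz covered the canonical TSS. Where the 2 starts are the same base the rule keeps Kbz off it.

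Divergent promoters, where a neighbour is transcribed the other way from a nearby start, were less common among offset promoters than among all acetylated promoters. Their share was close to that over all genes, many of which had no Kac over the TSS. A protein-coding start on the other strand lay within 1 kb upstream at 166 of 1712 (9.70%, 8.38 to 11.2), against 9.49% of all protein-coding genes, 14.5% of acetylated promoters, 17.0% where Kbz covered the TSS and 2.70% where no Kbz lay in the window. Where Kbz lay upstream only, the partner's start was under Kbz at 35 of 90 (38.9%, 29.5 to 49.2). With Kbz downstream only, the rule leaves no Kbz in that stretch, so no such share is given. PSMB9, a subunit of the immunoproteasome, is an offset example: its Kbz peak ended 130 bp before its TSS and covered the start of TAP1, a peptide transporter that serves the same antigen presentation pathway.

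Upstream Kbz peaks had their midpoint outside protein-coding genes in 499 of 879 promoters (56.8%), inside another protein-coding gene in 212 (24.1%) and inside a longer transcript of the same gene in 168 (19.1%). Downstream midpoints lay in an intron of the canonical transcript in 611 of 724 (84.4%), in a coding exon in 74 and in an untranslated exon in 25, and in 14 short genes the midpoint was past the gene end. Members were not all separate loci. The 1712 promoters had 1625 distinct nearest Kbz peaks, 169 shared that peak with another offset promoter, and 84 had a nearest peak that covered the TSS of another protein-coding gene.

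Offset promoters had more G and C at the start than the other classes. In the 200 bases around the TSS the median GC content was 73.5%, against 68.5% where Kbz covered the TSS. It was 74.0% with Kbz upstream, 72.0% with Kbz downstream and 76.0% with Kbz on both sides. In the window from 250 bases before to 50 after the TSS the median was 71.0%, against 65.3% with Kbz over the TSS, 65.0% with no Kbz nearby and 63.7% over all genes. The 200 bases of the nearest Kbz peak at its edge towards the TSS had a median of 64.0%. GC was higher there than in the 200 bases around the TSS in 311 of 1712 promoters (18.2%, 16.4 to 20.1). In most promoters the start was richer in GC than this end of the Kbz peak. Where Kbz covered the TSS, mean GC fell away from the start too, from 69.5% at 25 bp before the TSS to 58.0% at 275 bp before. Past the TSS it was 67.0% at 25 bp and 66.1% at 275 bp. Whether the fall at offset promoters goes beyond such a gradient was not tested.

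The CpG dinucleotide, the site of DNA methylation, was not more frequent relative to GC. The median ratio of observed to expected CpG was 0.870 at offset promoters and 0.865 with Kbz over the TSS, and CpG-rich promoters (GC of at least 55% and a ratio of at least 0.65) were 81.3% and 80.5%, against 48.8% with no Kbz in the window. The 109 promoters with Kbz on both sides were CpG-rich in 96.3%. Along the sequence, the ratio fell from 0.919 at the TSS to 0.700 at the Kbz edge.

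**Figure D5:**
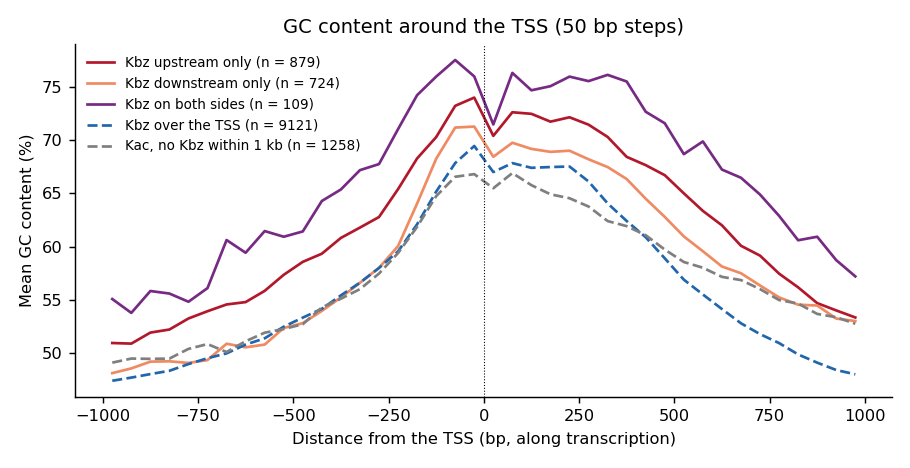
Mean GC content in steps of 50 bp around the TSS, along transcription, for offset promoters by side of Kbz (solid lines) and for promoters with Kbz over the TSS and with no Kbz within 1 kb (dashed). At 525 bp past the TSS the mean was 65.0% with Kbz upstream, 61.0% with Kbz downstream, 68.7% with Kbz on both sides and 56.9% with Kbz over the TSS.

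The flanks differed by side as well. At 525 bp past the TSS mean GC was 65.0% with Kbz upstream only, a side that carried no Kbz, and 56.9% where Kbz covered the TSS. At 525 bp before the TSS it was 52.4% with Kbz downstream only, 57.4% with Kbz upstream only and 52.5% where Kbz covered the TSS. At promoters with Kbz upstream the Kbz edge had higher GC than its mirrored place in 26.7%, and at those with Kbz downstream in 69.5%. GC content also moves the efficiency of sequencing, and its part in these values was not tested.

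The offset share was highest at the most GC-rich starts. Over acetylated promoters with Kbz in the window, split into quintiles by GC of the 200 bases around the TSS, it was 10.9, 8.68, 11.5, 18.0 and 29.9%, with median GC of 57.5, 64.5, 69.0, 73.5 and 79.5%. The difference between the ends of the GC range was present within weak and strong acetylation, split by SB Kac fold over the same promoters. In the lowest quintile of fold the share was 27.7% at the lowest GC and 43.7% at the highest, and in the highest quintile of fold 4.18% and 16.8%.

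Short motifs were counted on both strands from 250 bases before to 50 after the TSS. GGGCGG, the core of the GC box bound by Sp1 and Klf proteins, was present in 82.7% (80.8 to 84.4) of offset promoters, 73.7% of those with Kbz over the TSS and 61.3% of all promoters. CCGGAAGT, a motif of ETS factors, was present in 4.38% (3.51 to 5.46), 11.2% and 6.15%. TATAAA was present in 5.72% (4.72 to 6.93), 4.80% and 9.73%, and within the offset set in 3.30% with Kbz upstream and 8.56% with Kbz downstream. CCAAT was present in 32.9%, 37.2% and 36.0%, and the CREB site TGACGTCA in 2.34%, 3.98% and 2.69%. None of these motifs contains another of them. GGGCGG is itself made of G and C, so its share moves with the GC content above.

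Gene lists give a view of which promoters these were. Each list below is counted over its promoters that were acetylated and had Kbz in the window, where 15.8% of all genes were offset. Ribosomal protein, oxidative phosphorylation and proteasome genes had shares below that value. Of 85 cytosolic ribosomal protein genes 1 was offset (1.18%), RPL3L, a paralogue of RPL3 known from muscle. Mitochondrial ribosomal protein genes had 3 of 74 (4.05%), MRPL28, MRPL41 and MRPS34, and oxidative phosphorylation had 3 of 75 (4.00%), ATP5F1C, COX6B1 and NDUFA8. The proteasome had 2 of 34 (5.88%), and both, PSMB9 and PSMB10, are immunoproteasome subunits. ER stress and amino acid response genes had 0 of 21, and cholesterol genes 1 of 23 (4.35%), INSIG2, which holds back the maturation of SREBP.

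The 4 lists of transcription factors known from development or the liver had shares above 15.8%. KLF factors had 6 of 8, among them KLF3, KLF6, KLF9, KLF11 and KLF15, with a median distance of 509 bp. SOX factors had 4 of 6: SOX2, SOX9, SOX12 and SOX13. KLF6 had Kbz on both sides, ending 606 bp before and beginning 717 bp after the TSS, with folds of 3.95 and 5.88. HOX genes had 8 of 34 (23.5%), and liver transcription factors 3 of 8 (37.5%). The last were PROX1, ONECUT1 and NR0B2, the first 2 of them regulators of liver development. ONECUT1 had Kbz 96 bp upstream with a fold of 6.18, PROX1 had Kbz 118 bp downstream with a fold of 3.30, and NR0B2, a repressor of nuclear receptors in bile acid control, had Kbz 158 bp upstream with a fold of 3.69. These lists are short, and 36 of 39 HOX genes were acetylated in the libraries labelled HepG2.

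Immediate early genes, which respond fast to stimuli, had 5 of 15 (33.3%). NR4A1, a nuclear receptor, had Kbz from -939 to -235 bp with a fold of 7.22, and EGR1, a zinc finger factor, had Kbz from -1990 to -474 bp at percentile 75.4 of the Kbz list. SB Kac and control Kac crossed both starts. The phospholipase and prostaglandin genes had 10 of 30 (33.3%), ACHE and PTGS2 included, and since the study picked those genes on these samples their count is no independent evidence. Cyclins and cyclin-dependent kinases had 10 of 42 (23.8%). CDK6, which drives entry into S phase, had Kbz from 232 to 3986 bp, a long peak in the gene body, and CDK19, a kinase of the Mediator complex, had Kbz 55 bp upstream.

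Lists of chromatin genes ranged from 16.7 to 25.7%. Polycomb subunits had 5 of 23 (21.7%), with EZH2, the H3K27 methyltransferase, 214 bp from Kbz upstream, and BMI1 770 bp. Histone deacetylases and sirtuins had 3 of 15, HDAC3, HDAC7 and HDAC11, and SIRT2 was not among them. Histone acetyltransferases had 2 of 10, readers of acyl-lysine 4 of 23 (17.4%), among them BRPF3, CECR2 and TRIM24, and SWI/SNF subunits 3 of 18 (16.7%), ARID1A, BCL7B and SMARCD1. Replication-dependent histone genes had 9 of 35 (25.7%). H2AC21 had Kbz on both sides, ending 194 bp before and beginning 996 bp after its TSS, and H3C1 had a Kbz peak that began 14 bp past its start and covered the start of H4C1.

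The largest list, ZNF zinc finger genes, had 44 of 343 (12.8%), and its members had Kbz close to the start, with a median distance of 67 bp against 247.5 bp over all offset promoters. ZNF675, ZNF766 and ZNF841 had Kbz 23, 71 and 52 bp downstream. ZNF574 had Kbz 191 bp upstream with a fold of 12.4, among the highest of the set. Heat shock and chaperone genes had 5 of 70 (7.14%), among them BAG3, a co-chaperone, and the small heat shock genes HSPB6 and HSPB9. Glycolysis had 3 of 16 (18.8%): PFKL, the liver form of phosphofructokinase, and the enolases ENO2 and ENO3, known from neurons and muscle. Cytochrome P450 genes had 3 of 13 (23.1%), CYP1A1, CYP39A1 and CYP4X1, NRF2 target genes 2 of 17 (11.8%), among them GCLC, and insulin and IGF signalling genes 2 of 10, INSRR and PIK3R1. Apolipoprotein genes had 0 of 3 and genes of benzoate activation and glycine conjugation 0 of 4, and no plasma protein gene was acetylated with Kbz in the window.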

How the data were processed

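Per the labels and the study's methods, the authors prepared chromatin by MNase digestion, mapped 50 bp single reads to hg38 with Bowtie2 (2.2.6), removed PCR duplicates with SAMtools (0.1.19) and called peaks per library with MACS2 (2.1.1) at a stated FDR of 0.01. The broad setting and the background of each call are not given in the sources used here. The deposited lists are in broad format. The authors' score column, an integer for display, entered no value here. The deposited fold is a linear ratio of read density over background, averaged over a peak, and was ranked within its own list only. Where folds of different lists are printed side by side, they are not on a common scale. The deposited −log10 p and −log10 q values served as thresholds. The highest q in the lists was 0.0487 (control Kac), 0.0494 (SB Kac) and 0.0485 (SB Kbz), above the stated FDR, and the lists were used whole.

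Canonical starts came from GENCODE 44, alternative starts from its other transcripts and, by symbol, from RefSeq (hg38). Promoter sequence was read from hg38, and no peak reached past a chromosome end. CpG-rich was defined on the 300 bases from 250 before to 50 after the TSS. Mirroring reflected each Kbz peak across the TSS. Intervals are Wilson 95%. Python 3.11.15, numpy 2.4.6, pandas 2.3.3 and matplotlib 3.10.9 were used.

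The genes named are those the study followed up, the 3 with the highest Kbz fold for each side, the 3 at each end of the distance rule and just outside it, the 3 with the highest SB Kac fold and no control Kac over the TSS, and up to 4 per gene list by SB Kac fold. Other members of a list named with its count, and the choice of promoters drawn or printed beyond that rule, were picked after their values were seen. The members and the gene lists were chosen with earlier results of these data known. A few genes that the rule names are not reported here. Alternatives were other thresholds on q and on peak number, other windows, merging of close peaks, a larger overlap, promoters without neighbouring genes and genes without another start under Kbz.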

Additional observations from a re-analysis of the deposited data

How the results depend on the processing

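Across 9 alternatives, 70 values of 8 results were recomputed. Of these, 40 stayed inside the interval of the reported value (or within 1.5 times for the number of promoters) and 30 moved further. A −log10 q threshold of 2 (the stated FDR), a minimum of 100 bp of Kbz in the window and the merging of peaks within 1 kb moved none. For merging the construction shows why, since no peaks of a list lie that close.

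At a −log10 q threshold of 5 the number of offset promoters fell from 1712 to 801, all of them among the 1712, and their share of acetylated promoters with Kbz in the window from 15.8% to 10.8%. Kbz upstream only then made up 60.8%, the median distance was 217 bp, control Kac covered the TSS in 60.2% (90.7% where Kbz covered the TSS), another start of the gene lay under Kbz in 33.0%, a start of another gene in 27.1% and 83.5% were CpG-rich. With the 15000 peaks of each list that had the highest −log10 p, the values were 853 promoters, 10.4%, 57.9% upstream only, 211 bp, 47.6% with control Kac over the TSS (79.6% where Kbz covered the TSS), 33.8% and 26.6%. Apart from the smaller lists, the cause was not tested.

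By construction a window of 500 bp or 2 kb changes the range of distances. The offset share was 13.2% and 16.8%, upstream only 59.3% and 46.6% and the median distance 194.5 and 265.5 bp. At 500 bp control Kac covered the TSS in 81.9%, and at 2 kb 78.4% were CpG-rich. Without promoters that had a start of another gene within 2 kb, 974 offset promoters were left, at a share of 18.6%. Without genes that had another start of their own under any Kbz peak, also one outside the window (the 502 promoters above count only peaks that reach into it), 1088 were left, and the share was 49.0%, because this removes most promoters with Kbz over the TSS too. Upstream only was then 57.9%, the median distance 259.5 bp and the share with a start of another gene 17.0%.

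No paired analysis was possible because the groups are 1 library each, and no replicate was left out for that reason. Depth is unknown in peak lists, so a start without a peak is one where the signal missed the threshold, not one shown to lack the mark.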
